A study of Mus musculus with 8 samples.

Results

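In mouse liver, 134 genes and unnamed transcripts were each read by a probe that was well above background only on arrays labelled as Bcl6 knockout. They were found among 45616 genes and unnamed transcripts read by 56605 probes. Members were chosen by their detection calls: a probe had to be marked well above background on all 4 arrays labelled as lacking Bcl6 in the liver and on 0 of the 4 wild-type arrays. Spots that the scanner marked as uneven were left out. Where several probes of a gene qualified, the one with the highest mean log2 signal stood for it. The rule was met by 141 probes of 138 genes, 0.249% of all probes. Of these genes 4 were set aside (Slc22a2, Col22a1, Adra2c and Pnliprp1), which left 134, of which 85 carry a gene symbol and 49 only a transcript or probe identifier. Because detection in knockout and its absence in wild type chose the members, their difference between the genotypes is described below and was not tested.

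The arrays measured RNA of whole liver from mice aged 10 to 11 weeks in a study of how Bcl6 bears on the difference between male and female liver. There were 4 groups with n = 2 arrays each: males and females, either wild type or labelled knock out, the deletion being restricted to the liver per the sample titles. The sources used here do not give the Cre driver, the strain or the exact part of the gene that was deleted. Only the replicate names mark the arrays of a group as separate, so p-values cover the spread between these arrays, which may be technical.

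Bcl6 is a zinc-finger protein that binds DNA and recruits corepressors, and it is best known for holding plasma cell and T helper genes silent in lymphocytes. In liver it is more abundant in males and its known targets overlap those of STAT5, the factor that carries growth hormone signals to sex-dependent hepatocyte genes. A gene that a repressor keeps off can appear as one whose transcript is read only once the repressor is gone, although indirect effects give the same reading.

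All 8 arrays shared 1 slide and 1 scan time, with the females in row 1 and the males in row 2, so that sex and row cannot be told apart. Each array held 59305 spots other than controls, of which 33677 to 36459 were well above background and 0 were saturated. The number of arrays limits the precision. Bcl6 itself was read by 1 probe, which was well above background on all 8 arrays. Its signal was 440.4 and 3110 on the female knockout arrays, 3034 and 2161 on the male knockout arrays, 1161 and 286.2 on the female wild-type arrays and 2436 and 956.3 on the male wild-type arrays. The genotypes overlapped at this probe. The sources used here do not say whether it lies within the deleted part, and the genotypes therefore rest on the labels.

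Signals below are the scanner's processed signals in arbitrary units, and a level of one gene cannot be set against a level of another. Since wild-type readings were under the detection limit, only a lower bound of each member's difference can be given. For it, each wild-type value was raised to the lowest signal called well above background on its array, which lay between 6.49 and 7.81, and the mean log2 difference was taken within each sex. By this measure the knockout signal was at least 2-fold above the wild-type limit in both sexes for 81 members, at least 4-fold for 37, at least 10-fold for 18 and at least 30-fold for 7. With the background corrected by normexp, an alternative chosen after seeing the data, the 81 became 19. The median lower bound was 2.71-fold, with a range of 1.19-fold to 156-fold over the members.

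The opposite rule, detection on all 4 wild-type arrays and on 0 knockout arrays, was met by 49 probes of 49 genes, 0.0866% of all probes. Their median lower bound was 1.54-fold, 7 reached 2-fold in both sexes, and 0 reached 4-fold in both. The set read only in knockout was therefore larger than its mirror image and extended to greater differences, as a description of these 8 arrays. One array off the rule, the excess in number was smaller or turned. On 4 arrays of 1 genotype and 1 of the other there were 140 probes for knockout and 120 for wild type. On 3 arrays and 0 there were 97 for knockout and 143 for wild type.

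**Figure D1:**
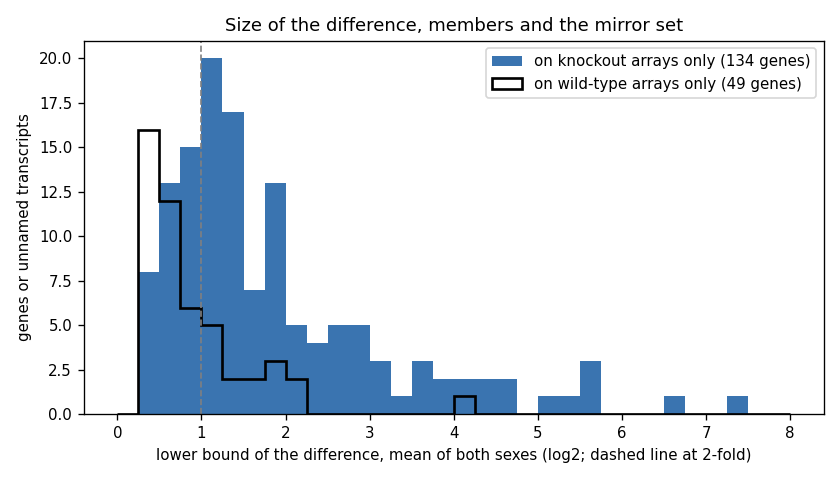
Histogram of the lower bound of the difference between genotypes (log2, mean of both sexes) for the 134 genes read only on knockout arrays (filled) and the 49 read only on wild-type arrays (outline). The dashed line marks 2-fold, and the filled bars extend to the right beyond the outline, up to 156-fold.

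Ccdc38, a coiled-coil protein of the sperm flagellum, had the largest lower bound. Its signal was 1151 and 990.1 in female knockout liver and 1100 and 1057 in male knockout liver, against 1.63 and 1.87 in female and 5.76 and 4.04 in male wild-type liver. All 4 knockout arrays lay far above all 4 wild-type arrays, a difference of at least 160-fold in females and at least 151-fold in males. Its second probe gave the same picture, with a mean of 665 in knockout against 4.04 in wild type, where it was detected on 1 array.

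Several members are known from striated muscle, heart or brown fat. Cox8b, the subunit 8 isoform of cytochrome c oxidase used in muscle and brown fat, read 263.7 and 1006 in female and 398.6 and 123.6 in male knockout liver, and 2.67 to 6.97 in wild type. The knockout replicates of Cox8b spread widely, and the sexes overlapped. The lower bound was at least 77.4-fold in females and at least 31.1-fold in males. Cap2, a regulator of actin filament turnover in heart and skeletal muscle, read 174.0 and 165.6 in female and 137.7 and 213.7 in male knockout liver against at most 1.84 in wild type, at least 24.7-fold as the mean of both sexes. Both genes were clear of their wild-type arrays on every knockout array. Corin, a protease that activates atrial natriuretic peptide, and Ank2, an ankyrin of cardiac muscle, were also members. Corin read between 10.6 and 17.1 in knockout, at least 2.23-fold in females and 1.5-fold in males. Ank2 read between 10.7 and 15.4, at least 1.95-fold and 1.59-fold. A brighter probe of Ank2 was detected on all 4 wild-type arrays, with means of 23.5 in wild type and 43.5 in knockout.

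Members with roles in germ cells and motile cilia formed another group. Tdrd12, a Tudor-domain helicase of the piRNA pathway that silences transposons in the testis, read 119.7 and 155 in female and 157.3 and 193.5 in male knockout liver and at most 1.69 in wild type. Its lower bound was at least 20.5-fold in females and at least 24.4-fold in males. Tdrd9, a second helicase of that pathway, read 31.4 to 63.4 in knockout, at least 6.70-fold in females and 7.62-fold in males. Stk33, a serine/threonine kinase of the testis, read 161.7 and 97.9 in female and 102.9 and 118.7 in male knockout liver, and its second probe also met the rule. Efhb, an EF-hand protein of the axoneme, read 91.8 to 129.6 in knockout and at most 1.94 in wild type. Rsph1, a component of the radial spoke head, read 21.3 to 31.6, with a lower bound of at least 3.35-fold in females and 3.65-fold in males.

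A further group encodes receptors, channels and signalling enzymes that are usually described outside the liver. Insrr, the insulin receptor-related receptor, a tyrosine kinase that senses alkaline conditions in the kidney, read 210.3 and 395.7 in female and 355.7 and 372.3 in male knockout liver against at most 2.69 in wild type. Its second probe differed, being detected on all 4 wild-type arrays with means of 21.3 in wild type and 34.7 in knockout. Sorcs3, a sorting receptor of neurons, read 72.2 to 123.5, and Adcy1, the calmodulin-stimulated adenylyl cyclase of brain, 36.0 to 76.8. Rap1gap2, a GTPase-activating protein for Rap1, read 46.8 to 70.7 and Gpr179, a receptor of retinal bipolar cells, 30.9 to 53.1. Mas1, the receptor for angiotensin 1-7, read 9.84 on 1 female knockout array and 27.7 to 35.9 on the others.

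Secreted proteins, enzymes and surface markers made up the last group. Acer1, the alkaline ceramidase of epidermis, read 109.3 and 196.3 in female and 184.3 and 209.6 in male knockout liver and 1.52 to 1.99 in wild type, at least 24.6-fold as the mean of both sexes. Cga, the alpha subunit shared by pituitary glycoprotein hormones, read 90.8 to 115.5 in knockout against at most 6.50 in wild type, at least 15.4-fold and 15.6-fold. Prom1 (CD133), a membrane glycoprotein of progenitor and bile duct cells, read 58.4 and 66.2 in female and 44.0 and 36.3 in male knockout liver. Cela3a, a pancreatic elastase, read 27.2 and 42.3 in female and 69.8 and 102 in male knockout liver against at most 3.26 in wild type. Members with a symbol but no role stated here included the non-coding genes Gm32448 (191.9 to 393.5 in knockout) and Gm31987 (47.9 to 82.7) and the gene BC039966 (40.7 to 139).

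**Figure D2:**
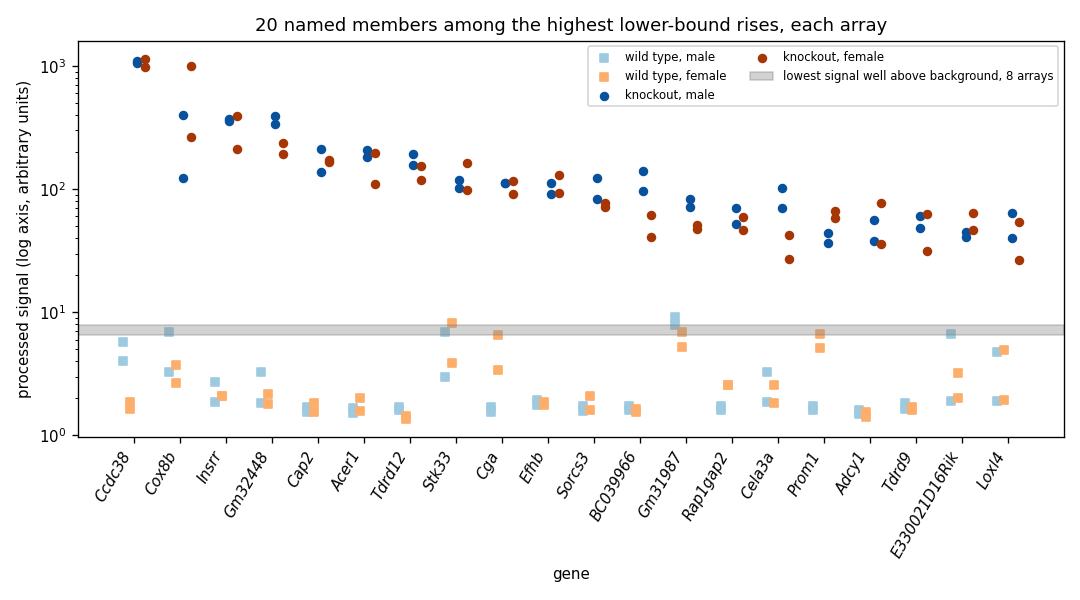
Processed signal (log axis, arbitrary units) of 20 members with a symbol and among the highest lower bounds, each point 1 array: squares wild type, circles knockout, coloured by sex. The grey band spans the lowest signals called well above background on the 8 arrays (6.49 to 7.81), and every circle lies above it.

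Unnamed transcripts made up 49 of the 134 and took 3 of the 7 highest lower bounds. ENSMUST00000095451 read 398.5 and 606.1 in female and 837.3 and 829.1 in male knockout liver and at most 3.30 in wild type. ENSMUST00000112253 read 205.0 to 455.3 in knockout. The median lower bound was 2.52-fold for unnamed transcripts and 2.83-fold for genes with a symbol.

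How far the members were silent in wild type depended on the probe and on the detection call. A single probe read 80 members. Of the 54 with several, 19 had no probe on any wild-type array, and 35 had another probe that was well above background on at least 1 of them. That left 99 members with no probe well above background on any wild-type array. A laxer call, in which a spot's signal need only be positive and differ from its background, marked 53 members (39.6%) on all 4 wild-type arrays and 10 (7.46%) on none. Among 17837 probes that were well above background on no array, it marked 10.5% on all 4 wild-type arrays and 40.5% on none. The median wild-type signal was 3.06 for members and 1.88 for those probes. The laxer call marked a further 71 members on 1 to 3 wild-type arrays. For wild-type liver, "below the detection limit" thus means only not well above background, and not absence of signal.

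Where a gene had several probes, these shared the pattern to different degrees. Esr1, the estrogen receptor alpha, was a member through a weak probe (12.9 to 18.4 in knockout), whereas its brightest other probe was detected on all 4 wild-type arrays, with means of 396 in wild type and 1219 in knockout. Rassf5, a Ras-binding adaptor, likewise had another probe with means of 316 and 1094. Crx, a photoreceptor transcription factor, and Tgm3, a transglutaminase, had other probes that were bright in both genotypes, with means of 863 and 866 for Crx and 408 and 420 for Tgm3. By contrast Mas1 (12.4 and 172), Loxl4, a collagen-crosslinking lysyl oxidase (9.65 and 121), and Kcnk10, a potassium channel (20.4 and 108), had other probes that were well above background on at least 3 wild-type arrays and much brighter in knockout. Of the 77 other probes, 37 were brighter in knockout by at least 1 on the log2 scale. The share over all probes was not taken. The 37 include probes that were well above background on no array, whose differences lie below the detection limit. Examples are those of E330021D16Rik (means of 1.61 in wild type and 5.06 in knockout) and Corin (1.92 and 4.39).

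**Figure D3:**
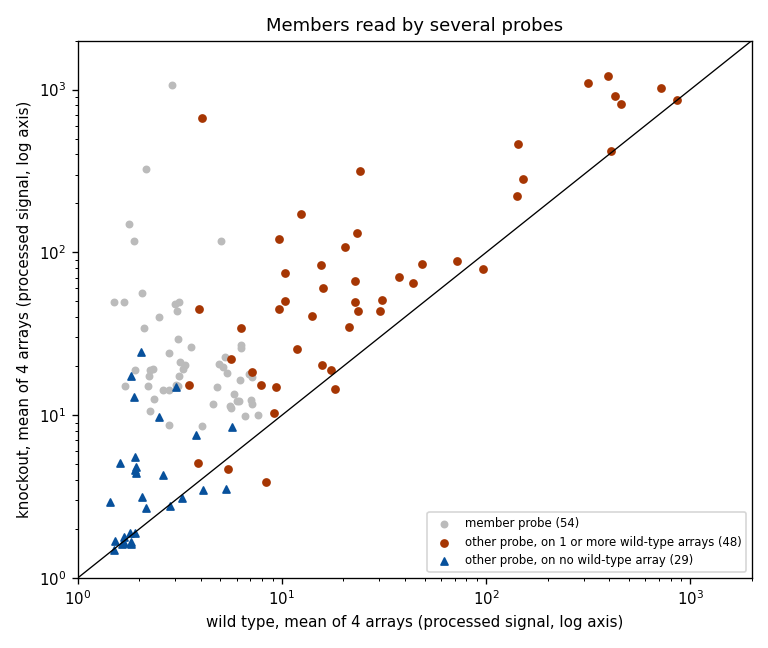
Mean signal over the 4 wild-type arrays (x, log axis) against the 4 knockout arrays (y, log axis) for the 54 members read by several probes. Grey points are the member probes, red points the 48 other probes detected on at least 1 wild-type array and blue triangles the 29 detected on none; points above the diagonal are brighter in knockout.

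Near the detection limit the rule separates like values. The 3 members with a symbol closest inside it were Olfr1077-ps1 (7.41 to 9.06 in knockout), Vgll3 (7.07 to 12.3) and Rassf5 (7.28 to 10.4). Just outside it, 140 probes were detected on 4 knockout and 1 wild-type array and 97 on 3 knockout and 0 wild-type arrays. The former included 2210407C18Rik, with 480.4 to 1255 in knockout and 1 wild-type male array well above background, Colgalt2 (162.8 to 198.4 in knockout) and Sorcs2 (133.3 to 218.6). The latter included AI197445, where 1 male knockout array read 126.8 and the other 3 knockout arrays 5.76 to 14.6, Col23a1 (9.37 to 20.4) and Gm30906 (8.67 to 23.9). Members under 2-fold in at least 1 sex numbered 53.

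The SD over the 4 knockout arrays, which includes any difference between the sexes, had a median of 0.33 on the log2 scale. It was 0.18 for 13374 probes detected on all 8 arrays whose knockout means lay within the range of most members. Levels were not matched inside that range, and 75 of the 134 members had a median knockout signal under 20. Whether the SDs differ at a like level was not tested. Among the members the SD exceeded 1 for 4.

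The rule made no contrast between the sexes, and male and female knockout liver were compared with that in view. It did require detection in both, so a gene absent in 1 sex could not be a member, and the counts below hold under that condition. Limma was fitted to all 26551 genes and transcripts with a detectable probe, with adjustment by Benjamini-Hochberg over all of them. Between the sexes in knockout it called 20 of them, 0.0753%. Of the 134 members it called 0, with a smallest adjusted p of 0.471, and 19 (14.2%) had an unadjusted p under 0.05 against 6.01% of all. Male and female knockout arrays did not overlap for 63 members, 40 higher in males and 23 higher in females. That is 47.0% of the members, where the share over all genes was 41.3%. The median size of the difference was 0.29 on the log2 scale for members and 0.13 for all genes, and the median SE 0.33 and 0.16.

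For some members the interval of the sex difference was narrow. For Ccdc38 the male minus female difference was 0.12 on the log2 scale with a 95% confidence interval of -0.21 to 0.45, and for Cap2 it was 0.12 (-0.50 to 0.74). Cox8b could not be placed, with a difference of -1.11 and an interval of -3.18 to 0.96. The interval stayed within 1 of zero on the log2 scale for 43 members and within 2 for 121. For the remaining members it reached further than 2 from zero. The members with the smallest p-values failed the correction. AK086934 was lower in males by a difference of -0.83 ± 0.14 (SE; adjusted p = 0.471 in limma). ENSMUST00000132286 read 52.0 and 156 in females against 11.9 and 12.3 in males, a difference of -2.79 ± 0.49 (SE; adjusted p = 0.511 in limma). Tenm4, a teneurin of neurons, read 24.1 and 35.8 in females against 12.9 and 12.2 in males (-1.12 ± 0.21, adjusted p = 0.516 in limma). Cela3a differed by 1.42 ± 0.31 toward males (adjusted p = 0.569 in limma) and BC039966 by 1.32 ± 0.28 (adjusted p = 0.557 in limma), both higher on each male than on each female knockout array.

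The sexes were also compared in their knockout minus wild-type difference. For every member this contrast rests on values the rule used and on wild-type readings below the detection limit, so nothing about the members is read from it. It called 50 of 26551 genes, 0.188%, and 0 of the 134 members in limma. An unadjusted p under 0.05 was found for 21 of the 134 members and for 8.35% of all genes.

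**Figure D4:**
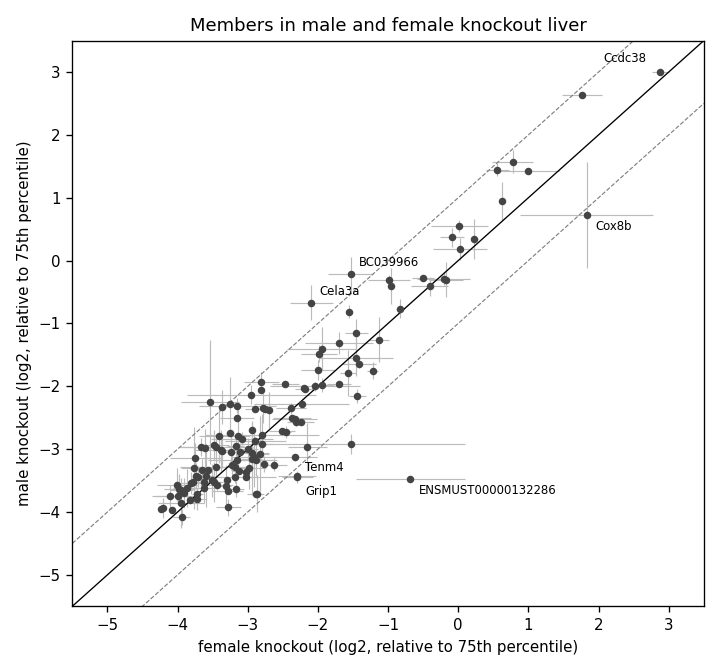
Mean log2 level relative to the array's 75th percentile in female (x) and male (y) knockout liver for each of the 134 members; bars span the 2 replicates of each sex. The solid line marks equality and the dashed lines a difference of 1 on the log2 scale, which 9 members exceeded.

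Promoter sequences could be matched by symbol for 69 members with 93 promoters (250 bases before to 50 after the start, RefSeq, build GRCm38.p6). They were searched on both strands for TTCCTNGAA, a form of the Bcl6 motif, and for TTCNNNGAA, the STAT-type site that contains it. TTCCTNGAA stood in 1 member promoter (1.08%), against 1.35% of the promoters of all genes tested and 1.59% of all 32851 promoters. TTCNNNGAA stood in 4 (4.30%), against 7.20% and 8.30%. TTCCTNGAA or TTCTTNGAA stood in 2 (2.15%), against 2.34% and 2.93%. A match is a run of letters and not a shown binding site, and the absence of one says nothing of sites elsewhere.

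The 3 promoters shown first hold such a site, in capitals, and belong to Esr1, the only member with TTCCTNGAA (here read on the opposite strand), and to BC039966 and E330021D16Rik, both among the 20 named members with the highest lower bounds. The Esr1 promoter is 1 of several of that gene and lies at chr10:4709908-4710207 on the plus strand. The BC039966 promoter lies at chr4:153950427-153950726 and the E330021D16Rik promoter at chr6:136415520-136415819, both on the minus strand. The site begins 188 bases before the start in Esr1, 127 before it in BC039966 and 205 before it in E330021D16Rik.
Esr1: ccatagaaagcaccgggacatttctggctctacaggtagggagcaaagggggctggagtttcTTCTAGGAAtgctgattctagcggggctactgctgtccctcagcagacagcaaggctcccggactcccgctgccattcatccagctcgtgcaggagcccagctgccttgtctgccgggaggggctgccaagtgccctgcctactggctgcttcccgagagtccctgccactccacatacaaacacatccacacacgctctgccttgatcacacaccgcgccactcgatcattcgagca
BC039966: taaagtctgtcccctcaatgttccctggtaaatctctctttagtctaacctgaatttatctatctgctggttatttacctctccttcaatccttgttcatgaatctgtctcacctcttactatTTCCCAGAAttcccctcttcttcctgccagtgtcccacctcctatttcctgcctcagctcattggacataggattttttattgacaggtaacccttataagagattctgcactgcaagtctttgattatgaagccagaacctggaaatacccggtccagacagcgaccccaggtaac
E330021D16Rik: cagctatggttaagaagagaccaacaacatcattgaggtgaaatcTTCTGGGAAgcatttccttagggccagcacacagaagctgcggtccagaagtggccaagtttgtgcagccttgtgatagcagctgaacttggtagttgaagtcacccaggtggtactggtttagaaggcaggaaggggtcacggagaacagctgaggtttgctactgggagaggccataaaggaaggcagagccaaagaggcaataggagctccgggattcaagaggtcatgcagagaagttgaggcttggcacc

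The promoters of the member genes held few CpG dinucleotides. The median was 7 per promoter, against 17 for the promoters of all genes tested in liver and 7 for all promoters, and the median GC content was 53.0%, 59.0% and 52.7%. The 2 members with the highest lower bounds among named genes differ in this respect and are shown with CG in capitals. Cox8b (chr7:140900397-140900696, minus strand) has 2 CpG, and the upstream promoter of Ccdc38 (chr10:93540382-93540681, plus strand) has 14.
Cox8b: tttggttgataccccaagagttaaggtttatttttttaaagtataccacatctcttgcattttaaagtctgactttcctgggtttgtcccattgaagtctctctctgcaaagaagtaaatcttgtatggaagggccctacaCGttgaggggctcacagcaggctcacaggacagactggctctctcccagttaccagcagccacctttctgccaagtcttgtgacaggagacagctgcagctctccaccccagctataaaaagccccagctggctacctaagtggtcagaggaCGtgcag
Ccdc38: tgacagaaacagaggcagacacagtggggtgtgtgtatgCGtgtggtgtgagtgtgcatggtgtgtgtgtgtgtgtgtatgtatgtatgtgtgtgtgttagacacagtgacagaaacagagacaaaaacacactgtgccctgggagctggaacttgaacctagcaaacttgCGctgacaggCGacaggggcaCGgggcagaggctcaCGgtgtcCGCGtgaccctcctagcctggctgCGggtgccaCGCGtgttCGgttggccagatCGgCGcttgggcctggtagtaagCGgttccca

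All 85 members with a symbol were found in the RefSeq gene list of the same build, spread over 20 chromosomes. Of these, 74 (87.1%) were protein-coding and 10 (11.8%) long non-coding, against 93.3% and 5.56% of the tested genes in that list. Their median length was 29310 bases against 19799.

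A neighbour was the nearest tested protein-coding gene on each side of a member, at any distance. Members, the genes set aside and untested genes were passed over, so a gene named beside a member need not adjoin it. Neighbours were not used by the rule, so their difference between genotypes could be tested. Among 166 protein-coding neighbours, limma called 15 higher (9.04%) and 4 lower (2.41%) in male knockout liver and 11 higher (6.63%) and 4 lower (2.41%) in female knockout liver. Over 14413 tested protein-coding genes the shares were 6.30% and 5.34% in males and 3.45% and 2.85% in females. Whether the neighbours' shares differ from these was not tested. The number called changed when an array was left out. In females it was lower also without either male knockout array, although that group has no part in the female estimates. Leaving out an array leaves 1 in its group and fewer residual degrees of freedom for every contrast. The lost calls therefore cannot be laid to single arrays.

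The change was under 1 on the log2 scale for 8 of the 19 neighbours called in males and for 5 of the 15 called in females. The neighbours named next had the smallest adjusted p in males. Nedd9, a scaffold of integrin signalling beside the non-coding member Gm32448, read 13.7 to 21.2 in wild type and 204.9 to 289 in knockout, a rise of 4.15 ± 0.24 in males and 3.91 ± 0.24 in females on the log2 scale (SE; adjusted p = 4.99e-04 and 0.00105 in limma). Tmprss4, a transmembrane serine protease beside BC049352, rose by 5.90 ± 0.42 and 4.36 ± 0.42 (adjusted p = 0.0010 and 0.0050 in limma). Slc37a1, a sugar phosphate transporter beside Rsph1, rose by 2.52 ± 0.26 and 2.89 ± 0.26. Lipc, the hepatic lipase beside Gm32074, fell by 2.66 in males and by 2.17 in females (SE 0.16). Sybu, which tethers cargo to kinesin and lies beside 2310069G16Rik, was not well above background in wild-type males and rose by at least 4.35-fold there. In females Sybu was detected in wild type and rose by 1.44 ± 0.23, a call lost when either female knockout array (adjusted p = 0.128 and 0.0924 in limma) or replicate 2 of the female wild type (0.0889) was left out, and without the filter on dim probes (0.0732). Pyroxd2, beside Loxl4, fell by 1.80 in males. Snai3, itself a member, was the nearest tested protein-coding gene after the member Gm20735.

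Other genes of the members' pathways and tissues were followed in 24 lists, in which 330 genes other than members were tested. Limma called 33 higher and 21 lower in males and 19 higher and 12 lower in females, 61 in either. The share called over all 26551 genes was 5.76% higher and 4.93% lower in males and 3.46% higher and 2.45% lower in females. The 61 became 25 without either of the male knockout arrays and 33 and 39 without replicate 2 and 1 of the male wild type. They became 39 without either of the female knockout arrays.

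Beside Tdrd9 and Tdrd12, 9 other genes of the piRNA pathway and germ cells were tested: 0 were called higher and 2 lower in males, 0 higher and 1 lower in females, with 4 at an unadjusted p under 0.05 in limma in each sex. The medians were -0.03 and -0.07. Beside Ccdc38 and Rsph1, 24 other cilia genes gave 3 higher and 3 lower in males and 2 higher and 2 lower in females, with medians of 0.01 and 0.13. One of them, Dnah11, an axonemal dynein heavy chain, was detected in wild type at 9.22 to 16.1 and read 887.6 to 1083 in knockout. It rose by 6.28 ± 0.20 in males and 6.49 ± 0.20 in females (adjusted p = 1.75e-04 and 2.50e-04 in limma). Dnah11 missed the rule through its weak detection in wild type.

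Among 15 other subunits of cytochrome c oxidase, 0 were called higher and 3 lower in males, and 0 in either direction in females, with 6 and 2 at an unadjusted p under 0.05 in limma. The brown and beige fat list, which also holds Cox8b, gave 0 higher and 4 lower of 20 in males and 0 higher and 3 lower in females, with 5 and 7 at an unadjusted p under 0.05 in limma. There Adrb3, the adrenergic receptor of fat, fell by 5.10 in males and by 3.27 in females (SE 0.29). Genes of this list can be bright in wild-type liver itself. Elovl3 read 14240 and 8610 in wild-type males and 6.44 and 13.0 in knockout males. Whether the Cox8b signal came from fat was not tested.

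Of 31 other genes of ceramide metabolism, 3 were higher and 3 lower in males and 1 higher and 3 lower in females. Cerk, ceramide kinase, read 193.8 to 280.9 in wild type and 1173 to 1649 in knockout and rose by 2.91 ± 0.16 and 2.37 ± 0.16 (adjusted p = 4.46e-04 and 0.00140 in limma). Gba2, a glucosylceramidase, fell by 1.20 in males and by 1.76 in females (SE 0.11). Of 19 other genes of actin filament turnover, the list of Cap2, 1 was higher and 1 lower in males and 0 in either direction in females, with 6 and 9 at an unadjusted p under 0.05 in limma.

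Markers of other cell types were set beside the members they could bear on; in whole liver, more cells of a type and more RNA per cell cannot be told apart. For Cela3a, the list of pancreatic acinar markers held 6 tested genes other than Pnliprp1, with 1 higher and 1 lower in males and 1 higher in females. Their summed level relative to the 75th percentile was 19.9 to 21.9 in knockout and 20.5 to 59.9 in wild type. Cela1, the gene called lower in males, weighs heavily in this sum. It read 2116 to 2498 in knockout, 2463 and 3406 in wild-type females and 5702 and 7080 in wild-type males. The sum therefore says little of the other acinar markers. Cela3b, a close paralog of Cela3a and its neighbour, was the one that rose. In males, where 1 of 2 wild-type arrays was well above background, it rose by 3.37 ± 0.46 on the log2 scale (adjusted p = 0.0101 in limma). In females neither wild-type array was well above background and the rise was at least 6.11-fold (adjusted p = 0.0263 in limma). These calls were lost without either male knockout array for males (0.0503 and 0.0673) and, for females, without any 1 of 6 arrays (0.0576 to 0.100), with a replicate block (0.0522) and without the filter on dim probes (0.0732). The paralogs are close in sequence, and their signals are uncertain as separate readings.

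For Prom1, 9 other cholangiocyte markers were tested, with 0 called in either sex and 1 in each at an unadjusted p under 0.05 in limma, and summed levels of 22.2 to 27.7 in knockout and 21.8 to 31.3 in wild type. For Cox8b and Cap2, 16 markers of skeletal and heart muscle gave 1 higher and 0 lower in males and 2 higher and 0 lower in females, and their summed level was 6.56 to 10.7 in knockout and 6.98 to 9.80 in wild type. The summed muscle level overlapped between the genotypes, but a sum is led by its brighter genes. The muscle list held 35 genes, of which only these 16 were tested. Neb was called in both sexes and rose by 1.44 ± 0.28 in males and 2.68 ± 0.28 in females on the log2 scale (SE, adjusted p = 0.0307 and 0.00709 in limma). B and plasma cell markers moved with genotype: 5 of 11 were higher in males and 3 in females, and their summed level was 30.9 to 34.1 in knockout against 12.4 to 14.3 in wild type. Members known from immune cells included Fcrlb, an Fc receptor-like protein of B cells (7.78 to 9.82 in knockout), and Ccr2, a chemokine receptor of monocytes (9.43 to 14.7). The part of B cells in these readings was not tested.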

How the data were processed

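RNA of whole mouse liver was hybridised to 1-colour (Cy3) Agilent arrays, 2 per group of sex and genotype. The deposited intensity of each spot is the processed signal of Feature Extraction 11.5.1.1 per the file headers (9.1.3.1 per the submitters' processing notes), background-subtracted and corrected for spatial trend within an array. The deposited value table holds log2 values equal to log2 of these signals minus 1 constant per array and was used only for that check. Spots of a probe were averaged after marked ones were left out, and a probe counted as detected where over 0.5 of its spots were called well above background. From the log2 signals each array's 75th percentile was subtracted. Limma 3.58.1 (R 4.3.3; 4 group means, 4 residual and 2.07 prior degrees of freedom) tested 26551 genes represented by 33580 probes detected on both arrays of a group; members kept their own probe, other genes their brightest. Where a spot was marked, the remaining arrays were used. The threshold was an adjusted p of 0.05, and the procedure was tested on simulated data. Symbols came from RefSeq (GRCm38.p6) for 32994 probes; 23611 kept an identifier. Python 3.11.15, numpy 2.4.6, pandas 2.3.3 and matplotlib 3.10.9 were used.

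The members, gene lists and tests were chosen with earlier results of these data known, and role groups were assigned after values were seen. Named are the 5 genes given with the set, the 15 with the highest lower bounds, those just inside and outside the rule, members in lists or with a sure role, neighbours past the threshold (up to 6) and up to 3 genes per list. Alternatives were background correction (normexp, offset 50, on median intensities), quantile or median scaling, no filter, mean of a gene's probes, a replicate block, other detection calls, and each array left out. Some members are not reported here.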

Additional observations from a re-analysis of the deposited data

How the results depend on the processing

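The set itself depended on the detection call. With the laxer call (positive and different from background) 64 genes met the rule and 14 of them were shared with the 134. Leaving out any 1 array gave 138 to 184 genes, and all 134 stayed in by construction. Members at least 2-fold in both sexes numbered 81 and became 19 with normexp correction, which was chosen after the data were seen and whose offset shrinks low values; without any 1 array they were 70 to 91. No member was called between the sexes in knockout under any alternative run. For the interaction, from which nothing is read for members, 1 member was called with quantile normalization (2310069G16Rik) and 1 without female wild-type replicate 2 (AK085768), a range of 0 to 1 over the arrays left out. Called neighbours in males (19) numbered 30 with normexp, 11 without the filter on dim probes and 11 to 23 with an array left out. In females (15) they numbered 25, 6 and 4 to 13. Called list genes (61) numbered 30 without the filter and 25 to 66 with an array left out. One promoter-matched member held TTCCTNGAA, and 4 held TTCNNNGAA. Replicates shared only a number: correlations between same-numbered arrays lay between -0.00186 and 0.10. With that number as a replicate block, members called between the sexes in knockout and in the interaction were 0 and 0, neighbours 19 and 14, and list genes 52. Named genes tested one by one changed direction under none of the alternatives run. Counted over genes and alternatives, a call was lost 273 times and gained 3 times. Leaving out an array leaves 1 in its group and fewer residual degrees of freedom, so calls lost that way cannot be laid to that array alone. With 2 arrays a group, and wild-type values under the detection limit, neither small sex differences nor true absence in wild type can be shown.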

Other observations

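Genes of growth hormone and STAT5 signalling contained no member, and 3 of 24 were higher and 1 lower in male knockout liver and 3 higher and 0 lower in female. Ghr, the growth hormone receptor, read 5856 to 9147 in wild type and 48850 to 51760 in knockout, and rose by 2.70 ± 0.10 in males and 3.11 ± 0.10 in females (SE, n = 2 per group; adjusted p = 2.18e-04 and 2.50e-04 in limma). Prlr, the prolactin receptor, rose by 3.36 ± 0.19 and 2.43 ± 0.19. Cux2, a repressor found in female liver, was not well above background in wild-type males and read 746.7 and 815.6 in knockout males, at least 109-fold higher. In wild-type females it was detected, so it missed the rule of the set. Of 26 genes in a list drawn up as repressed by Bcl6 in lymphocytes, 3 were higher and 0 lower in males and 1 higher and 0 lower in females. Repression of each by Bcl6 was not checked. Cxcr5, 1 of those higher in males, was near the detection limit. It read 11.4 and 8.62 in knockout males, a rise of at least 1.39-fold.

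The remaining marker lists are given beside the share called over all genes, which was 5.76% higher and 4.93% lower in males and 3.46% higher and 2.45% lower in females. Of 20 hepatocyte markers 0 were higher and 1 lower in males and 1 and 1 in females. Stellate cell markers gave 3 higher of 14 in males and 1 lower in females, endothelial markers 3 higher of 15 and 1 higher, macrophage markers 1 higher of 16 in males, and T and NK cell markers 1 higher of 12 in males. Epidermal markers gave 2 higher of 9 in males and 1 in females, neuronal markers 2 higher and 1 lower of 7 in males and 1 higher in females, and intestinal markers 1 higher of 5 in each sex. Kidney tubule markers gave 1 lower of 9 in males, erythroid markers 1 lower of 7 in males and 1 higher in females, and adipocyte markers 1 lower of 6 in females. Neutrophil markers gave 0 of 6 in either sex, with 0 and 1 at an unadjusted p under 0.05 in limma.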
